A study of Mus musculus with 2 samples.

Results

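Notch pathway genes were followed through the cells of mammary tumors in mice, 10 of the 33696 genes counted. The list was chosen by name, with earlier results of these data known. It holds 4 ligands (Dll1, Dll4, Jag1 and Jag2), 3 receptors (Notch1, Notch3 and Notch4) and 3 target genes (Hey1, Hey2 and Hes1). The tumors were grown from PyMT-M and PyMT-N, sub-lines of the MMTV-PyMT model on the C57BL/6 background, in which polyoma middle T antigen is driven by a mammary promoter. Cells of each line were injected into the mammary fat pad of female C57BL/6 mice that keep their own vessels and immune cells, and the study classes PyMT-M as High-MAC (rich in macrophages) and PyMT-N as Low-MAC (rich in neutrophils). Dissociated tumors were depleted of CD45+ and Ter119+ cells, selected and sorted for the endothelial surface proteins CD31 and CD144, and measured by 10x Genomics 3′ single-cell RNA sequencing. Cells of 3 tumors were pooled per line, so each group had 1 library, no difference between PyMT-M and PyMT-N has a replicate check, and no p-value was computed.

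Notch signaling passes between touching cells. A ligand of the Delta-like (Dll) or Jagged (Jag) family on a cell's surface binds a Notch receptor on its neighbor, the receptor is cleaved, and its intracellular domain moves to the nucleus, where it binds the DNA-binding protein RBPJ and switches on Hes and Hey genes, which encode transcriptional repressors. In growing vessels Dll4 on the leading tip cell restrains sprouting of the cells behind it through Notch1, and Notch activity also goes with arterial identity. Notch4 is known as a mainly endothelial receptor, and Notch3 as the receptor of mural cells, the pericytes and smooth muscle cells that wrap vessels.

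Cells with at least 200 genes and at most 10% mitochondrial UMIs (unique molecular identifiers, each counting 1 captured mRNA molecule) were kept, 6719 of 7821 barcodes in PyMT-M and 5607 of 6974 in PyMT-N. The libraries held 141067264 and 116150425 UMIs over all barcodes. Cells were classed by marker UMIs. Blood endothelial cells had at least 5 UMIs of Pecam1, Flt1, Emcn and Kdr together and at most 1 of Krt8, Krt18 and Rhox5, lymphatic cells at least 3 of Prox1, Mmrn1 and Reln, tumor cells at least 3 of Krt8, Krt18 and Rhox5 with 0 of Pecam1 and Flt1, and fibroblasts at least 3000 CPM of Col3a1, where CPM is the UMIs of a gene per 1000000 UMIs. This gave 589 and 1069 blood endothelial cells in PyMT-M and PyMT-N, 20 and 207 lymphatic cells (of which 8 and 174 also met the blood endothelial definition), 4890 and 3297 tumor cells, and 45 and 54 fibroblasts. Tumor cells thus made up 72.8% and 58.8% of the kept cells although cells had been sorted for endothelial proteins. Blood endothelial cells were shallower in PyMT-M, with a median of 5202 UMIs against 12661 in PyMT-N, whereas tumor cells were deep in both (23724.5 and 20770). The classes were set against genes their definitions did not use, with unequal results. Cdh5, which encodes CD144, was at 975 CPM in PyMT-M blood endothelial cells and 1158 in PyMT-N, against 3.72 and 1.99 in tumor cells. The epithelial markers that the tumor definition did not use were at or near 0 in tumor cells, with Epcam at 3.52 and 0.411 CPM, Krt19 at 0 and 0.199, Krt7 at 0.00829 and 0.478 and Cdh1 at 0.0746 and 0.106. Part of the fibroblast and mural lists was present in the same cells. Col3a1 was at 301 and 118 CPM, Acta2 at 223 and 50.6 and Pdgfrb at 36.5 and 244. Col3a1 sets the fibroblast definition, and cells meeting the tumor and fibroblast definitions were in neither class, which bounds its level here. In each library 4 of the 7 fibroblast genes, Col3a1 among them, and 2 of the 8 mural genes were over 5 CPM in tumor cells. Others were low, with Col1a2 at 0.646 and 2.26 CPM, Lum at 0.0249 and 1.09 and Rgs5 at 0.0580 and 0.133. The name tumor cells therefore stands for the rule above and has no support from those 4 epithelial markers. The 7 myeloid markers summed to 32.7 CPM in PyMT-M blood endothelial cells and 230 in PyMT-N ones, the 8 mural markers to 227 and 267, and the 4 lymphocyte markers to 9.09 and 85.0. The 2 libraries shared 20 barcodes, of which none was a blood endothelial cell in both.

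Levels are given as CPM of a class with an exact 95% Poisson interval, and differences as log2 ratios of CPM with an exact 95% interval for a ratio of counts. These intervals cover counting error only. A gene was called where the ratio was at least 2-fold and its interval did not hold 0, among genes with at least 20 UMIs over both groups. Because a molecule is counted once at its 3′ end whatever its length, CPM is not scaled by length, and no order between genes is read from it. Shares of cells with a UMI are given after every cell was thinned to 2000 UMIs, which left out shallower cells.

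Promoter sequence was read for 8 of the 10 genes from RefSeq on GRCm38.p6, a different build from the mm39 used for the counts, as 250 bases before the start of transcription. The windows were searched on both strands for TGGGAA, the core of the motif bound by RBPJ. A match was present in 24.1% of all 27025 genes with such a window and in 1 of the 8, Hey2. No window was read for Hey1 and Hes1. The first 3 windows printed below belong to Dll4, Jag2 and Notch4, which are among the genes called higher in blood endothelial than in tumor cells in both libraries, and the last to Hey2. Capitals mark the match, which lay on the reverse strand.
Dll4, chr2:119325534-119325783, plus strand: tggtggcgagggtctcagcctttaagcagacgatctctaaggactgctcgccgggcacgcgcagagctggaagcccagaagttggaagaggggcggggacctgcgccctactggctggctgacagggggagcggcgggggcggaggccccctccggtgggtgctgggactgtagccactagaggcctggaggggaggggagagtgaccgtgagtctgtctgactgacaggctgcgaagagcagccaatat
Jag2, chr12:112929496-112929745, minus strand: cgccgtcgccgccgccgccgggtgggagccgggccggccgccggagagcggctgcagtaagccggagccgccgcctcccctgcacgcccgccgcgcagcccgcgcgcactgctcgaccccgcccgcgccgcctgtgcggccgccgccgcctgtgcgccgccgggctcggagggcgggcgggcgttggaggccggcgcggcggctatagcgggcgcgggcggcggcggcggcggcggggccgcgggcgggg
Notch4, chr17:34564045-34564294, plus strand: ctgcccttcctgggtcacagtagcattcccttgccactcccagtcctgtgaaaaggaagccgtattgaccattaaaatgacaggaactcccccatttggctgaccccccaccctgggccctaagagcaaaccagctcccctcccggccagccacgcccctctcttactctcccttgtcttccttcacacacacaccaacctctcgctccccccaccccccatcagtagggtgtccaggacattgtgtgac
Hey2, chr10:30842784-30843033, minus strand: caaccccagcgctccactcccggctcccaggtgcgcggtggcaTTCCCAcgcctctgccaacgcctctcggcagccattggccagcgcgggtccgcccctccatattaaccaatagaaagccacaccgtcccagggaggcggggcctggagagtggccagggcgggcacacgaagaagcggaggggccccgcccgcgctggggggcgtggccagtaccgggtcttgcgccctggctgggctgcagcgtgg
The share of G and C bases was 87.2% in the Jag2 window, 71.6% in that of Hey2, 65.6% in that of Dll4 and 58.4% in that of Notch4, against a median of 52.4% over all windows. The window of Notch4 held 4 CpG pairs and that of Jag2 held 54. A match to these letters is not a measured binding site, and the lack of one in this window says nothing of RBPJ.

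The 4 ligands were not alike. Dll4, Jag2 and Dll1 were called higher in blood endothelial than in tumor cells in both libraries, and Jag1 in PyMT-M only. Dll4 was at 196 CPM (181 to 212) in PyMT-M blood endothelial cells and 238 (230 to 246) in PyMT-N ones, against 0.191 (0.121 to 0.286) and 0.411 (0.279 to 0.584) in tumor cells. The log2 ratio of blood endothelial over tumor cells was 10.00 (9.41 to 10.67) for PyMT-M, with 9.18 (8.67 to 9.74) for PyMT-N, so Dll4 was nearly absent from tumor cells of either library. Lymphatic cells of PyMT-N held 31.0 CPM (24.9 to 38.2), between those levels, and its fibroblasts 2.96 (0.808 to 7.59). The 20 lymphatic cells of PyMT-M held 10 Dll4 UMIs, or 112 CPM (53.9 to 207). That interval overlapped the one of PyMT-M blood endothelial cells, and the ratio of 0.80 was not called. Jag2, a Jagged ligand, followed the same order, with 87.9 CPM (78.1 to 98.6) in blood endothelial cells from PyMT-M and 71.0 (66.8 to 75.4) in those from PyMT-N tumors and 0.182 and 0.159 in tumor cells. Its ratios over tumor cells were 8.91 (8.29 to 9.61) and 8.80 (7.99 to 9.76). Lymphatic cells of PyMT-N held 17.3 CPM of Jag2 (12.8 to 22.8).

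Jag1, by contrast, was found in every class. It was at 32.4 CPM (26.6 to 39.2) in blood endothelial cells from PyMT-M and 31.8 (29.0 to 34.8) in those from PyMT-N tumors, and at 10.0 (9.46 to 10.6) and 22.2 (21.2 to 23.3) in the tumor cells. In PyMT-N the fibroblasts (42.2, 32.0 to 54.7), lymphatic cells (36.0, 29.3 to 43.7) and blood endothelial cells had overlapping intervals, and the tumor cells lay below all of them. Dll1, the other Delta-like ligand, had 14.9 CPM (10.99 to 19.6) in blood endothelial cells from PyMT-M and 12.8 (11.03 to 14.7) in those from PyMT-N tumors. Tumor cells held 3.34 (3.02 to 3.68) and 0.371 (0.247 to 0.537), so the order of the libraries for Dll1 in tumor cells was clear of the intervals, while it was not in blood endothelial cells.

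**Figure D1:**
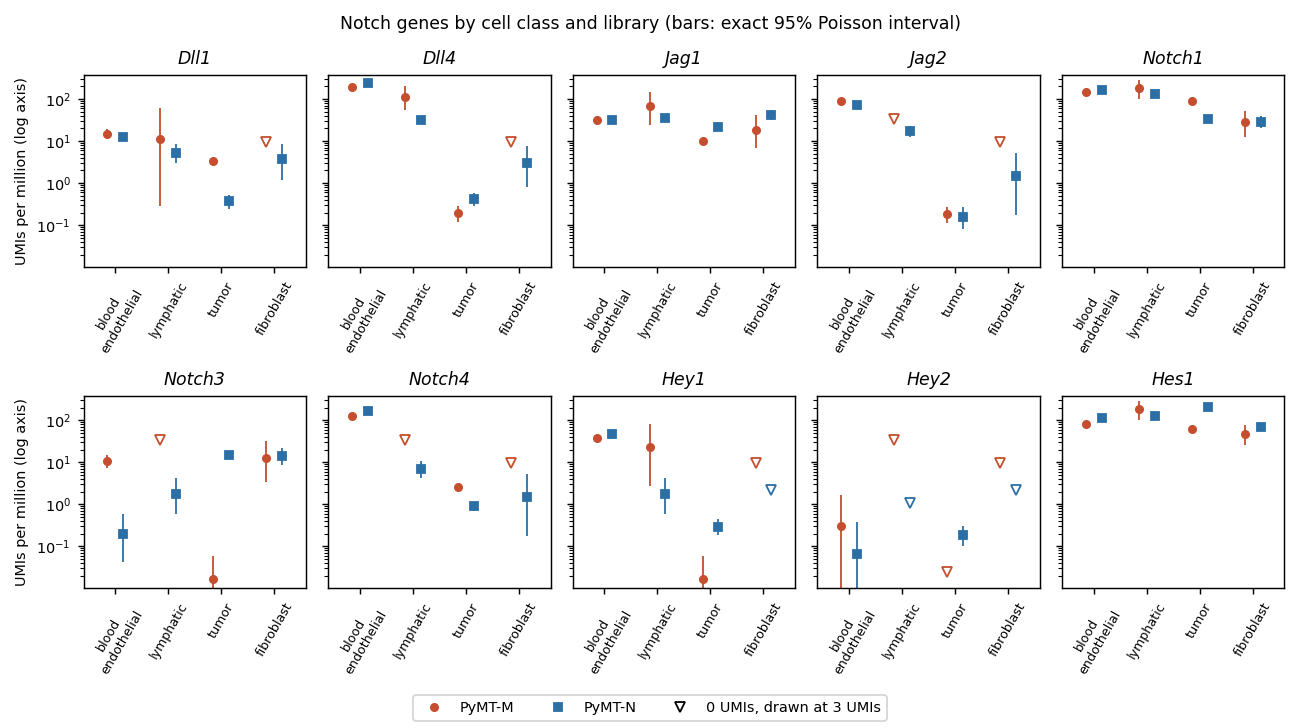
CPM on a log axis for the 10 Notch genes in 4 cell classes, PyMT-M as circles and PyMT-N as squares, with exact 95% Poisson intervals as bars. Open triangles stand for 0 UMIs and are drawn at the level of 3 UMIs. Dll4, Jag2, Notch4 and Hey1 fall from blood endothelial to tumor cells in both libraries, whereas Jag1, Notch1 and Hes1 are present in all 4 classes.

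Among the receptors, Notch1 was at 146 CPM (133 to 159) in blood endothelial cells from PyMT-M and 161 (155 to 168) in those from PyMT-N tumors. It was also well detected in tumor cells, at 87.8 (86.1 to 89.5) for PyMT-M, with 33.9 (32.6 to 35.3) for PyMT-N. The PyMT-N lymphatic cells, at 130 (118 to 144), lay below the blood endothelial cells by 0.30 on the log2 scale (0.15 to 0.47), and the fibroblasts were at 28.9 (20.6 to 39.5), overlapping the tumor cells. Notch4 was at 127 CPM (115 to 140) in blood endothelial cells from PyMT-M and 167.5 (161 to 174) in those from PyMT-N tumors. It was at 7.05 (4.31 to 10.9) in PyMT-N lymphatic cells, 1.48 (0.179 to 5.35) in PyMT-N fibroblasts and 2.62 (2.34 to 2.92) and 0.889 (0.689 to 1.13) in tumor cells. Its log2 ratio of blood endothelial over lymphatic cells in PyMT-N was 4.57 (3.94 to 5.28). Notch2, the remaining mammalian receptor, which is no member of the list, had the opposite distribution, with 5.76 and 10.3 CPM in blood endothelial cells against 73.4 and 120 in tumor cells and 74.8 in PyMT-N lymphatic cells.

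Blood endothelial cells held 35 Notch3 UMIs in PyMT-M, with 3 in PyMT-N, 10.6 CPM (7.39 to 14.8) and 0.201 (0.0414 to 0.586). All 35 UMIs of PyMT-M lay in 3 of the 589 cells. Those 3 cells held 154 of the 165 Rgs5 UMIs of the class and 339 of its 389 Acta2 UMIs, both markers of mural cells, and 0 UMIs of Cdh5 and of Pecam1. They had met the blood endothelial definition through 28 UMIs of Flt1 and 1 of Emcn. Their 8 mural markers summed to 17489 CPM against 54.5 in the other 586 cells. When blood endothelial cells with at least 2 UMIs of Rgs5, Acta2, Myh11, Des and Cspg4 were left out, an alternative chosen after the data were seen, 579 and 1059 cells remained, with 0 and 3 Notch3 UMIs. The Notch3 level of the PyMT-M blood endothelial class therefore rests on 3 cells with mural markers. Tumor cells of PyMT-M held 2 Notch3 UMIs and those of PyMT-N held 1121, 0.0166 CPM and 14.9 (14.0 to 15.8). The 1121 UMIs were spread over 689 of 3297 cells, whose mural markers summed to 317 CPM against 294 in the other tumor cells, and Rgs5 had 1 UMI in them.

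The targets divided as well. Hey1 was at 37.3 CPM (31.0 to 44.5) in blood endothelial cells from PyMT-M and 47.9 (44.5 to 51.5) in those from PyMT-N tumors. It had 2 UMIs in 4890 PyMT-M tumor cells and 22 in 3297 PyMT-N tumor cells, which gave ratios of 11.14 (9.25 to 14.20) and 7.36 (6.75 to 8.04). PyMT-N lymphatic cells held 1.76 CPM (0.573 to 4.12), 4.76 below the blood endothelial cells on the log2 scale (3.53 to 6.39). In the 20 PyMT-M lymphatic cells Hey1 was at 22.5 CPM (2.72 to 81.2) from 2 UMIs, and the ratio of 0.73 was not called. Hes1 was found throughout. It was at 79.1 CPM (69.8 to 89.3) in blood endothelial cells from PyMT-M and 110 (105 to 115) in those from PyMT-N tumors, at 63.1 (61.7 to 64.6) and 202 (199 to 206) in tumor cells, and at 125 (112 to 139) in PyMT-N lymphatic cells. Hes1 was therefore higher in blood endothelial than in tumor cells in PyMT-M and lower in PyMT-N, at ratios of 0.33 (0.14 to 0.50) and -0.88 (-0.95 to -0.81), neither of them at 2-fold. Hey2 had 1 UMI in the blood endothelial cells of each library and 14 in the PyMT-N tumor cells, and was not compared.

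Counted over the list, blood endothelial cells of PyMT-M had 7 members called higher than tumor cells (all but Notch1, Hes1 and Hey2, with Notch3 counted in 3 cells) and 0 called lower, beside 23.4% of all genes higher and 14.1% lower. In PyMT-N 6 were higher (Dll1, Dll4, Jag2, Notch1, Notch4 and Hey1) and Notch3 was lower, beside 22.6% and 15.5%. The median log2 ratio of the 9 members that passed the minimum was 5.603 for PyMT-M, with 5.10 for PyMT-N, and that of all genes 0.25 and 0.10. The PyMT-M median of members includes Notch3, at 9.32 from those 3 cells with mural markers. Of 62 other pathway genes, 52 and 55 passed the minimum. In PyMT-M 28.8% of them were higher than in tumor cells and 13.5% lower, and in PyMT-N 23.6% and 16.4%. Over PyMT-N lymphatic cells 5 members were higher (Dll1, Dll4, Jag2, Notch4 and Hey1) and 0 lower, beside 9.68% and 10.4% of all genes, with Jag1, Notch1 and Hes1 not called and Notch3 and Hey2 under the minimum. Over PyMT-N fibroblasts 6 were higher (Dll1, Dll4, Jag2, Notch1, Notch4 and Hey1) and Notch3 was lower, beside 18.1% and 12.9%. Hey1 had 0 UMIs in these fibroblasts. Over the 45 PyMT-M fibroblasts 5 were higher (Dll4, Jag2, Notch1, Notch4 and Hey1) and 0 lower, beside 16.1% and 9.76%. Dll4, Jag2, Notch4 and Hey1 had 0 UMIs in the PyMT-M fibroblasts, so these calls were made against a 0 set at 3 UMIs. The 20 PyMT-M lymphatic cells held only 89004 UMIs. Over them Jag2 and Notch4 were higher and Hes1 was lower, beside 3.92% and 7.07%. Jag2 and Notch4 had 0 UMIs in these lymphatic cells, and were 2.61-fold and 3.78-fold higher with the 0 set at 3 UMIs. Notch2, a receptor that the list leaves out, was called lower in blood endothelial cells in each of these comparisons.

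Setting PyMT-M against PyMT-N asked whether vessels of High-MAC and Low-MAC tumors differ in these genes. In blood endothelial cells, with the cell filters given above, the differences were small apart from Notch3. Dll4 was 1.21-fold lower in PyMT-M, at a log2 ratio of -0.28 (-0.40 to -0.16), Notch4 1.32-fold lower at -0.40 (-0.55 to -0.25), Hes1 1.39-fold lower at -0.47 (-0.67 to -0.28), and Hey1 1.28-fold lower at -0.36 (-0.65 to -0.083). Jag2 was 1.24-fold higher at 0.31 (0.12 to 0.50). The interval of Notch1, at -0.14, nearly reached 0 (-0.29 to -0.0030) and as a mean over cells the ratio turned to 0.019. The intervals of Dll1 (0.22, -0.27 to 0.68) and Jag1 (0.027, -0.29 to 0.33) held 0. Of the 10 genes 1 was called higher in PyMT-M (Notch3, at 5.72, with the 3 cells described above), 0 were called lower, 8 were not called and 1 was under the minimum. Over all 13188 genes 4.78% were called higher and 6.74% lower. The median of the 9 members, Notch3 among them, was -0.14 and that of all genes -0.015.

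Several of these ratios moved under filters on depth and on listed markers of other cells. Among blood endothelial cells with at least 5000 UMIs, 306 of them PyMT-M and 1022 PyMT-N, the log2 ratio of Hey1 was -1.34 (-1.81 to -0.90), which is past 2-fold, and those of Dll4, Notch1 and Notch4 were -0.53, -0.42 and -0.63. When cells with at least 2 UMIs of the myeloid, lymphocyte or mural markers or 5 of the fibroblast markers were left out, 547 and 471 blood endothelial cells remained (the mural list includes Kcnj8 and Abcc9, with 31 and 85 UMIs in PyMT-M and 1748 and 2120 UMIs in PyMT-N blood endothelial cells), and Dll4 was at 0.15 (-0.00021 to 0.29), Notch4 at -0.11 (-0.29 to 0.072) and Hey1 at 0.0086 (-0.34 to 0.35). As a mean over cells Hey1 was at 0.082. When only cells with at least 2 UMIs of Rgs5, Acta2, Myh11, Des and Cspg4 were left out, 579 and 1059 cells remained. Dll4 was then at -0.26 (-0.39 to -0.14), Notch4 at -0.39 (-0.54 to -0.24) and Hey1 at -0.35 (-0.63 to -0.067). The part of depth and of other cells in the differences of Dll4, Notch4 and Hey1 was not tested. Over the 11 alternatives the ratio kept its sign for Hes1 (-0.51 to -0.29), Notch4 (-0.63 to -0.11), Jag2 (0.13 to 0.44) and Dll1 (0.12 to 0.34). The interval stayed clear of 0 in all 11 for Hes1. For the mean over cells it was the interval of the summed counts moved to the new ratio. The interval of Jag2 held 0 in 3 of the 11, within 2-fold of the median gene number (0.14, -0.089 to 0.37), without cells with other markers (0.17, -0.059 to 0.39) and at 5000 UMIs (0.13, -0.10 to 0.36).

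**Figure D2:**
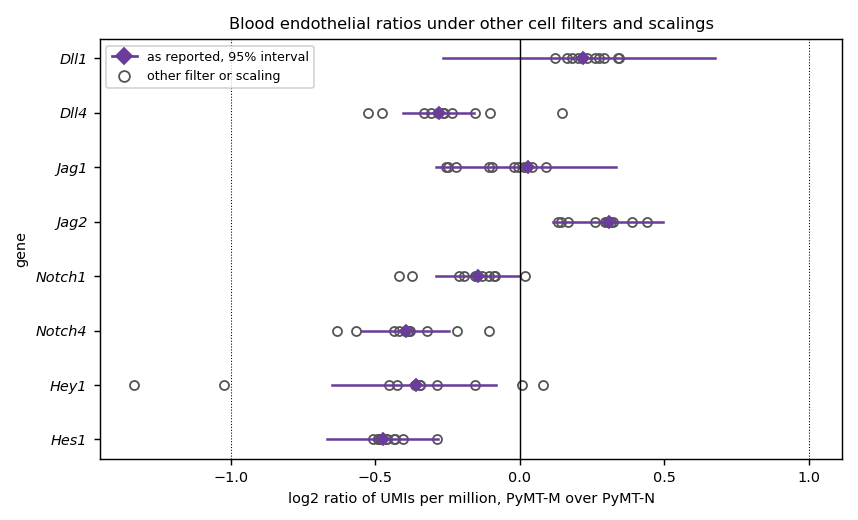
Log2 ratio of CPM, PyMT-M over PyMT-N, in blood endothelial cells for 8 genes, as reported (diamonds with 95% intervals) and under the other filters and scalings (open circles). Dotted lines mark 2-fold. The circles of Hes1, Notch4, Jag2 and Dll1 keep their side of 0, and those of Hey1 span -1.34 to 0.082.

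After thinning, the share of blood endothelial cells with a Dll4 UMI was 29.8% (26.0 to 33.8%, exact binomial interval) of 551 cells in PyMT-M and 35.7% (32.8 to 38.6%) of 1068 in PyMT-N. In tumor cells, thinned from medians of 23724.5 and 20770 UMIs, the Dll4 share was 0.0409% and 0.182%, far under the endothelial share. Notch1 was detected in 26.9% of thinned blood endothelial cells in both libraries, Notch4 in 22.3% and 28.3%, Jag2 in 16.5% and 14.0%, Hes1 in 13.4% and 18.0%, Hey1 in 6.90% and 8.33%, Jag1 in 6.72% and 5.90% and Dll1 in 3.81% and 1.78%. Tumor cells carried Notch1 in 16.0% and 6.89% of cells and Hes1 in 11.4% and 29.8%. At full depth, where cells differ in UMIs, Dll4 was in 51.1% and 79.4% of blood endothelial cells.

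**Figure D3:**
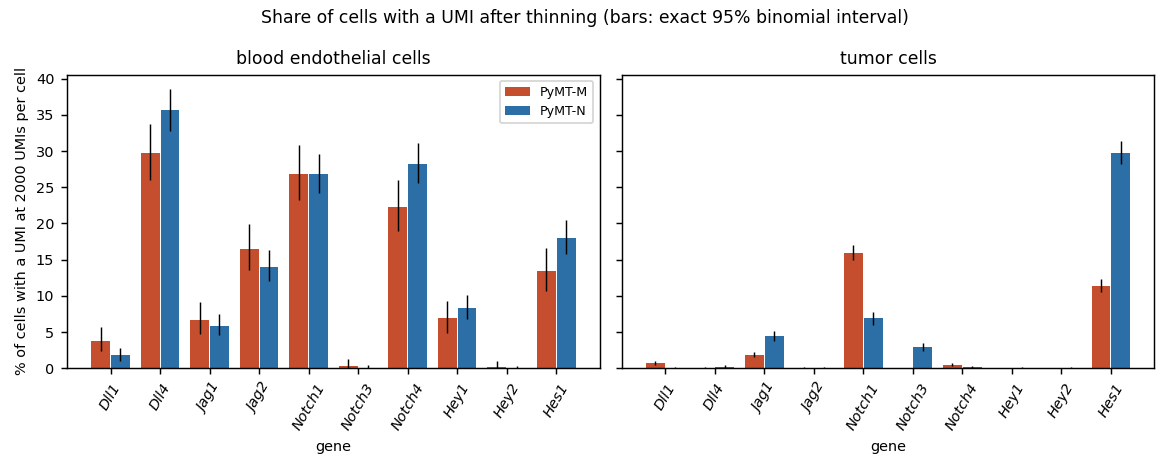
Share of cells with a UMI of each gene after thinning each cell to 2000 UMIs, in blood endothelial and tumor cells, with bars from 0 and exact 95% binomial intervals. Dll4, Notch4 and Jag2 are detected in blood endothelial cells and almost nowhere in tumor cells. Hes1 is in 29.8% of PyMT-N and 11.4% of PyMT-M tumor cells.

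In tumor cells 8 of the 9 genes that passed the minimum were called between the lines. Hes1 was 3.21-fold lower in PyMT-M (log2 ratio -1.68, -1.72 to -1.64), Jag1 2.22-fold lower (-1.15, -1.26 to -1.04), and Notch3 was at -9.81 (-12.86 to -7.95). Hey1, at -4.14 (-7.27 to -2.11), and Dll4, at -1.11 (-1.95 to -0.28), were called lower from 2 against 22 and 23 against 31 UMIs, and after thinning 0 and 2 tumor cells held a Hey1 UMI and 2 and 6 a Dll4 UMI. Blood endothelial cells, which held both genes at far higher levels, made up 8.77% of the kept cells in PyMT-M and 19.1% in PyMT-N. For each 100 Dll4 UMIs tumor cells held 8.70 and 71.0 of Hey1, and blood endothelial cells 19.0 and 20.1. The part of free RNA from endothelial cells in these 2 calls was not tested. Dll1 was 8.99-fold higher in PyMT-M (3.17, 2.62 to 3.78), Notch1 2.59-fold higher (1.37, 1.31 to 1.43) and Notch4 2.95-fold higher (1.56, 1.17 to 1.96). Thus 3 members were called higher and 5 lower, beside 21.1% and 27.4% of all 16945 genes, with Jag2 not called and Hey2 under the minimum. At a minimum of 200 UMIs, which leaves out Hey1 and Dll4, 3 were lower. Of the other pathway genes 54 passed the minimum in tumor cells, with 9 called higher (16.7%) and 15 lower (27.8%). Rbpj, which encodes the DNA-binding partner of the receptors' intracellular domain, was at 32.6 CPM in PyMT-M tumor cells, against 195 in those of PyMT-N, a ratio of -2.58 (-2.63 to -2.53). Among the 7 other Hes and Hey genes 3 were called and 4 were under the minimum. Heyl had 0 and 114 UMIs, 60.8-fold lower in PyMT-M with the 0 set at 3 UMIs. Hes6 had 4 and 1412 UMIs (-9.14, -11.02 to -7.78), whereas Hes7 was 20.4-fold higher in PyMT-M at 10.5 against 0.517 CPM (4.35, 3.89 to 4.85). Hes6 and Hes7 were chosen after their values were seen. Mfng, which adds sugars to Notch receptors, was at 2.36 and 0.0663 CPM.

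The Notch4 and Dll4 counts of PyMT-M tumor cells were not in the proportion seen in blood endothelial cells of that library. Tumor cells held 316 Notch4 and 23 Dll4 UMIs, whereas blood endothelial cells held 420 and 646. The 273 PyMT-M tumor cells with a Notch4 UMI had 15.3 CPM of Cdh5 and 24.1 of Il24, which encodes a secreted cytokine, against 2.95 and 3.02 in the other 4617 tumor cells, and a similar median depth (25695 and 23629 UMIs). Of the other endothelial list genes compared, Tie1 was higher in them at 1.84 against 0.416 CPM (2.15, 1.17 to 3.03), from 14 and 47 UMIs. Cldn5 was higher at 0.922 against 0.256 (1.85, 0.41 to 3.07), from 7 and 29 UMIs. The intervals of Esam (0.86, -0.10 to 1.69) and Dll4 (0.50, -2.63 to 2.54) held 0. Notch1 was lower in these cells, at 67.8 against 89.2 CPM (-0.39, -0.53 to -0.27). The 333 PyMT-M tumor cells with a Dll1 UMI had 13.3 CPM of Cdh5 and 25.5 of Il24 against 2.90 and 2.54, with median depths of 27647 and 23499 UMIs. Notch1 and Hes1 were lower in them, at -0.32 (-0.44 to -0.21) and -0.42 (-0.56 to -0.29), and the interval of Jag1 held 0 (0.14, -0.17 to 0.43). Cdh5 is a marker of the endothelial check list, and Il24 was chosen after its values were seen. In PyMT-N tumor cells with Notch4 the Cdh5 level was 2.17 CPM against 1.99 in the others.

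**Figure D4:**
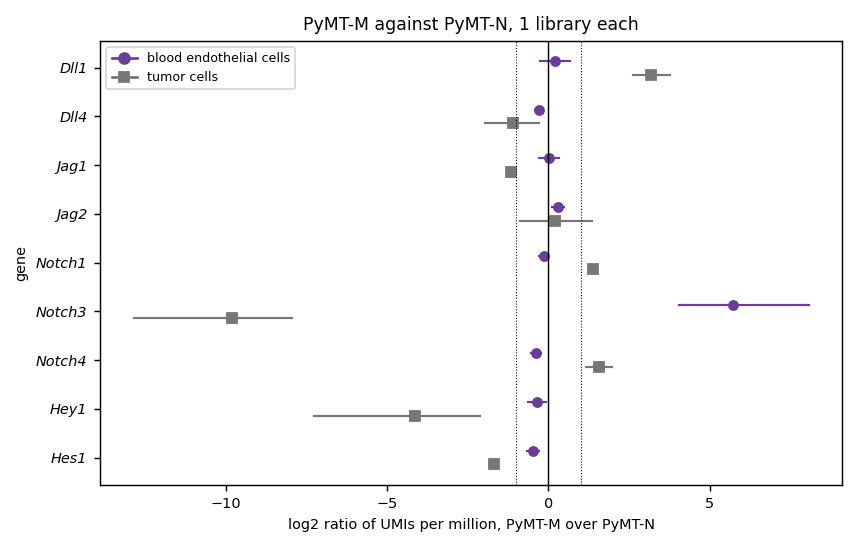
Log2 ratio of CPM, PyMT-M over PyMT-N, with exact 95% intervals, in blood endothelial cells (circles) and tumor cells (squares), 1 library each. Dotted lines mark 2-fold. All blood endothelial ratios other than Notch3 lie between -0.47 and 0.31, and those of tumor cells range from -9.81 to 3.17. Hey2 is left out because it had too few UMIs.

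Of 62 other genes of the pathway, 51 passed the minimum in blood endothelial cells. None was called higher in PyMT-M, 2 were called lower, or 3.92% of the 51, and 49 were not called, beside 4.78% and 6.74% of all genes. The 2 were the Deltex genes Dtx1, with 0 and 47 UMIs, and Dtx4, with 2 and 60 UMIs (-2.73, -5.81 to -0.81). Dtx1 was 3.46-fold lower with its 0 set at 3 UMIs. Deltex proteins are ubiquitin ligases that bind Notch receptors. No gene of the cleavage machinery (10 genes), the nuclear complex (8) or the corepressors (8) was called. Nrarp, a feedback inhibitor that Notch itself induces, was at 106 and 114 CPM (-0.097, -0.27 to 0.069). Rbpj was at 26.4 and 37.7 CPM (-0.52, -0.86 to -0.19) and Mfng at 69.7 and 94.7 (-0.44, -0.65 to -0.24). Lfng, another glycosyltransferase of Notch, was at 4.85 and 9.23 CPM. Heyl had 4 and 1 UMIs, under the minimum, and was not compared. Egfl7, a secreted endothelial protein that binds Notch, was at 1688 and 1297 CPM (0.38, 0.34 to 0.42).

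Within blood endothelial cells the genes were set against arterial, tip and cycling marker lists that hold none of the 10, as the 20% of cells with the highest summed level of a list over the remaining cells of the same library. The cells so chosen are a range of a score and not a cell type. In the arterial range (118 PyMT-M and 214 PyMT-N cells) Hey1 was at 159 CPM against 16.7 in the rest in PyMT-M, a log2 ratio of 3.25 (2.71 to 3.81), and at 120 against 31.2 in PyMT-N, 1.95 (1.73 to 2.16). Dll4 was at 0.56 (0.27 to 0.84) and 0.89 (0.79 to 1.00), Notch1 at 0.99 (0.68 to 1.29) and 0.63 (0.50 to 0.76), and Notch4 at 0.66 (0.31 to 1.01) and 0.79 (0.66 to 0.92). Jag1 was at 1.70 (1.09 to 2.29) and 0.71 (0.40 to 1.00), and Jag2 at 1.29 (0.91 to 1.66) and 0.48 (0.27 to 0.68). All 6 were higher in the arterial range in both libraries at full depth. Hes1, at -0.56 (-1.19 to 0.021) and -0.14 (-0.33 to 0.045), was not. In PyMT-M the arterial range was shallow, with a median of 3584 UMIs against 5561 in the rest, and among cells with at least 5000 UMIs Hey1 was at 2.78, and Notch1 at 0.54 (0.14 to 0.93), but the intervals of Dll4 (0.18, -0.19 to 0.53), Notch4 (0.23, -0.22 to 0.67), Jag1 (0.38, -0.56 to 1.25) and Jag2 (0.30, -0.23 to 0.81) held 0. The mural markers summed to 409 CPM in the PyMT-M arterial range and 196 in the rest, and to 395 and 238 in PyMT-N. The PyMT-N sums are not like those of PyMT-M. Over all PyMT-N blood endothelial cells Kcnj8 and Abcc9 held 1748 and 2120 UMIs, against 43 of Rgs5 and 26 of Acta2. Without the cells with mural UMIs, Hey1 in the PyMT-M arterial range was at 3.33 and Jag1 at 1.42.

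In the tip range Dll4, Notch4 and Hes1 were higher in both libraries. Dll4 was at 288 CPM against 168 in PyMT-M, 0.77 (0.53 to 1.01), and at 358 against 207 in PyMT-N, 0.79 (0.69 to 0.89). Hes1 was higher at 0.74 (0.35 to 1.12) and 0.56 (0.40 to 0.72), and Notch4 at 0.52 (0.20 to 0.82) and 0.66 (0.54 to 0.79). Notch1 was at -0.034 (-0.36 to 0.28) and 0.077 (-0.065 to 0.22). Jag2 was lower in PyMT-M, at -0.71 (-1.20 to -0.24), and at 0.039 (-0.18 to 0.25) in PyMT-N. In the cycling range Hey1 was lower in both libraries, at -2.12 (-3.21 to -1.18) and -1.64 (-2.04 to -1.27), as were Dll4 at -0.45 (-0.72 to -0.17) and -0.90 (-1.03 to -0.76), Notch4 at -0.75 (-1.12 to -0.39) and -0.77 (-0.93 to -0.61), and Hes1 at -0.92 (-1.42 to -0.45) and -0.30 (-0.48 to -0.13). Jag1 was lower too, at -0.74 (-1.52 to -0.025) and -0.88 (-1.27 to -0.51). Jag2 and Notch1 were lower in PyMT-N, at -0.84 (-1.10 to -0.59) and -0.35 (-0.50 to -0.21), and their PyMT-M intervals held 0. The mural markers summed to 381 CPM in the PyMT-M cycling range and 168 in the rest, and to 101 and 318 in PyMT-N. The tip and cycling ranges were both deeper than the rest. The tip range had a median of 6122.5 UMIs against 4757 in PyMT-M and 13088 against 12482 in PyMT-N. Medians of the cycling range were 7357.5 against 4656 and 14762 against 12241. The tip and cycling ratios were also recomputed among cells with at least 5000 UMIs, and those values are not given here. The part of depth as a cause of these ratios was not tested.

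**Figure D5:**
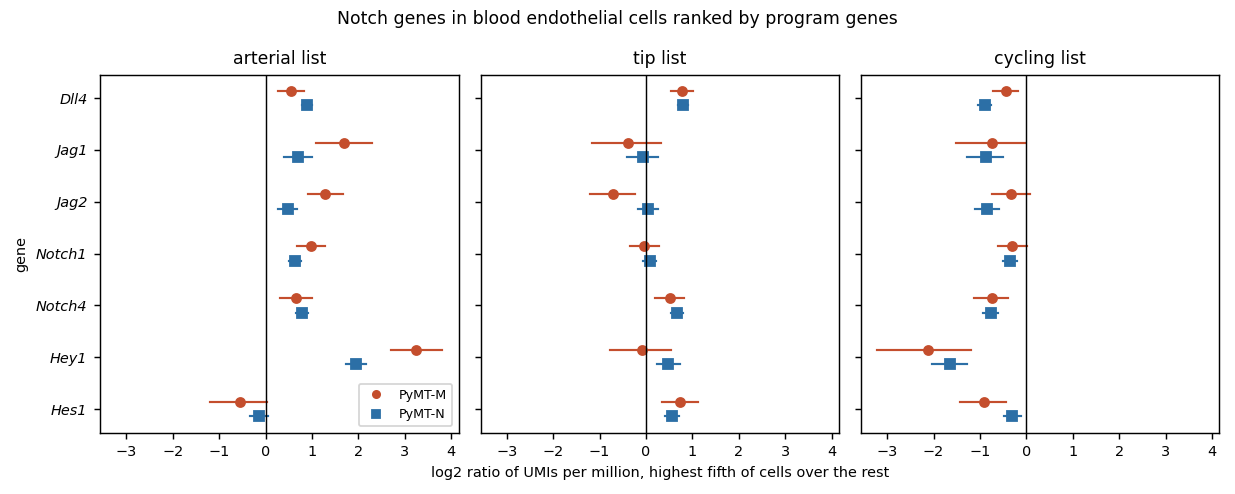
Log2 ratio of CPM, the 20% of blood endothelial cells highest for a marker list over the rest, for 7 genes in each library with exact 95% intervals. Hey1 is highest in the arterial range and lowest in the cycling range in both libraries, and Dll4 is above 0 in the arterial and tip ranges.

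Cells in which Dll4 was detected in a separate thinning (162 PyMT-M and 384 PyMT-N cells) were compared with those in which it was not. Hey1 was at 53.8 against 28.6 CPM in PyMT-M, 0.91 (0.35 to 1.47), and at 70.1 against 35.9 in PyMT-N, 0.97 (0.75 to 1.18). Notch4 was higher at 0.67 (0.37 to 0.97) and 0.57 (0.46 to 0.69), and Nrarp at 0.66 (0.34 to 0.99) and 0.64 (0.50 to 0.78). Hes1 was at 0.38 (-0.015 to 0.76) and 0.54 (0.40 to 0.68). Among the arterial markers compared, Gja4, a gap junction gene, was at 1.28 and 1.27. Efnb2 was at 0.68 and 0.94, and Gja5 at 0.39 (-0.51 to 1.25) and 2.17. The tip genes Esm1, Apln and Angpt2 were at 0.57, 0.73 and 0.68 in PyMT-M but 0.12, 0.14 and 0.15 in PyMT-N. Kcne3 was at 0.63 and 0.57. Notch2 went the other way in PyMT-N, at -1.48 (-2.16 to -0.86). So did Rbpj, at -0.46 (-0.74 to -0.20), and Lfng, at -0.73 (-1.33 to -0.16). The PyMT-M intervals of Notch2, Rbpj and Lfng held 0. The intervals of Dll1, Jag1, Jag2 and Notch1 held 0 in PyMT-M, and those of Dll1 and Jag1 (0.011, -0.27 to 0.29) in PyMT-N. Egfl7 was also higher in cells with Dll4, at 0.16 (0.078 to 0.25) and 0.19 (0.14 to 0.23). All 35 Notch3 UMIs of PyMT-M lay in cells without Dll4, namely the 3 cells with mural markers described above. The part of cells with markers of other types in these ratios was not tested. The median depth of cells with and without Dll4 was 4843 and 5507 UMIs for PyMT-M, with 12028 and 12935.5 for PyMT-N.

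Across the 6 groups with at least 50 cells (blood endothelial and tumor cells of both libraries, and lymphatic cells and fibroblasts of PyMT-N), the genes most like Dll4 of 13388 included Jag2 and Mmp15, at Pearson correlations of 0.997 and 0.995 of log2(CPM + 1). Those most like Hey1 were Csf2rb, Ppp1r12c and Klk8, at 0.9996, 0.999 and 0.998, and those most like Notch4 were Pik3c2b, Gal and 4930512B01Rik, at 0.996, 0.993 and 0.993. The first gene was Pygb for Dll1 (0.983), Nek9 for Jag1 (0.997), Dll4 for Jag2 (0.997), Dazap2 for Notch1 (0.996), Map1lc3b for Hes1 (0.984) and Med24 for Hey2 (0.976), which had 16 UMIs in these groups. These correlations rest on 6 points that share libraries and are a description.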

How the data were processed

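Single-cell UMI counts were measured in 1 PyMT-M and 1 PyMT-N library, each from 3 pooled tumors. The authors deposited raw counts per gene and barcode, which the submitters' processing notes credit to Cell Ranger 8.0.0 and mm39. Whole-number counts were summed per cell class and compared with Python 3.11.15, numpy 2.4.6, scipy 1.17.1 and pandas 2.3.3. A cell that met the lymphatic and the blood endothelial definition counted as lymphatic, and any other pair in neither class. Doublets were not called, and cells over 2 times the median UMIs of their class were left out in an alternative. A group with 0 UMIs was set at a floor of 3 UMIs. The depths of 3298592 and 14949229 UMIs over blood endothelial cells limit precision. Intervals and calls were tested on simulated Poisson counts, the same error that the intervals assume. That test does not cover UMIs gathered in a few cells. The members and lists were chosen with earlier results of these data known. All 10 members were named, with the 7 pathway genes Notch2, Rbpj, Nrarp, Mfng, Lfng, Heyl and Egfl7, other pathway genes called between libraries in blood endothelial cells, and genes most like a member (the first of 3 for 6 members, more for Dll4, Notch4 and Hey1, and the remaining ones not reported here). Alternatives changed cell filters, class definitions, scaling, count minimum, fold and thinning depth. For the mean over cells no interval was computed from the cells, and calls used the interval of the summed counts moved to the new ratio.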

Additional observations from a re-analysis of the deposited data

Results flagged for a closer look

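For 3 receptors the PyMT-M over PyMT-N ratio had opposite signs in blood endothelial and in tumor cells, with both intervals clear of 0 as reported. Each value compares 1 library with 1 library, and the difference between the cell classes was not tested. Notch1 was at -0.14 in blood endothelial and 1.37 in tumor cells, and as a mean over cells its blood endothelial ratio turned to 0.019. The interval of that ratio held 0 without cells over 2 times the median UMIs (-0.087, -0.24 to 0.062), without cells with other markers (-0.089, -0.26 to 0.079), with cells counted in every class they meet (-0.11, -0.25 to 0.032) and with the median ratio set to 0 (-0.13, -0.27 to 0.012). Notch4 was at -0.40 and 1.56, and its blood endothelial ratio was -0.11 (-0.29 to 0.072) without cells with other markers. Notch3 was at 5.72 and -9.81, the first of them from 3 cells with mural markers.

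The ratio of blood endothelial over tumor cells had opposite signs in the 2 libraries for a receptor and a target, again not tested. Notch3 was at 9.32 in PyMT-M and -6.21 in PyMT-N. The PyMT-M value came from 35 UMIs in 3 cells with mural markers, against 2 UMIs in tumor cells. Without blood endothelial cells with mural UMIs, 0 Notch3 UMIs remained in that PyMT-M class. Hes1 was at 0.33 in PyMT-M and -0.88 in PyMT-N.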

How the results depend on the processing

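With 1 library per group no replicate could be left out. No paired analysis was possible because each group has 1 library. Alternatives with cells removed test fewer cells, and a stricter minimum tests fewer genes. In all other cases the cause was not tested. Between the libraries in blood endothelial cells, 630 genes were called higher and 889 lower in PyMT-M. Leaving out cells with markers of other types gave 332 and 338, a minimum of 200 UMIs gave 214 and 357, and a 1.5-fold call gave 1274 and 1429. The other pathway genes called higher, 0, became 1 without cells over 2 times the median UMIs and 3 at 1.5-fold. Those called lower, 2, became 4 with cells counted in every class they meet, 1 under the stricter endothelial definition, 0 at 200 UMIs and 8 at 1.5-fold. The 1 Notch gene called higher (Notch3) became 0 without cells over 2 times the median, without cells with other markers, at 200 UMIs and, chosen after seeing the data, without cells with mural UMIs. The 0 called lower became 1 (Hey1) at the 2-fold limit on gene numbers and at 5000 UMIs per cell.

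In tumor cells the 5 called lower in PyMT-M became 3 without cells with other markers (407 and 275 cells remained), without mitochondrial, ribosomal and hemoglobin genes in the total, and at 200 UMIs. Blood endothelial cells over PyMT-N tumor cells had 1 lower, which became 2 without cells with other markers and at 1.5-fold. Over PyMT-N fibroblasts the 1 lower became 0 without cells over 2 times the median and at 200 UMIs, and leaving out cells with other markers left 0 fibroblasts and gave no value. Over PyMT-M fibroblasts the 5 higher became 2 without cells with other markers, where 9 fibroblasts remained and Hey1 was at -0.91, and the 0 lower became 1 with cells counted in every class, under the stricter definition and as a mean over cells. Over the 20 PyMT-M lymphatic cells the 2 higher became 0 at the gene number limit and at 5000 UMIs and 1 without cells with other markers, and the 1 lower became 0 under these 3 and with the median ratio set to 0. The Hey1 ratio of the arterial range moved within its interval under all alternatives run for it. Of the recomputed counts and arterial Hey1 ratios 228 stayed within 1.5 times or within the interval and 36 moved.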

Other observations

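Other endothelial marker lists gave ratios that differed between the libraries. In the 20% of blood endothelial cells highest for venous genes, Dll4 was at 100 CPM against 212 in the rest in PyMT-M, a log2 ratio of -1.08 (-1.54 to -0.66), and at 249 against 236 in PyMT-N, 0.075 (-0.057 to 0.21). Hes1 was lower in that range in both, at -0.78 (-1.45 to -0.17) and -0.37 (-0.60 to -0.16). The venous range was shallower than the rest, with medians of 3692.5 against 5534 UMIs in PyMT-M and 9946 against 13387 in PyMT-N. In the range highest for interferon-induced genes Dll4 was at 0.64 (0.39 to 0.89) in PyMT-M and -0.022 (-0.15 to 0.10) in PyMT-N, and Hey1 at 0.80 (0.20 to 1.37) and -0.13 (-0.42 to 0.16). In the range highest for capillary genes Dll4 was at -0.45 (-0.78 to -0.13) and 0.51 (0.40 to 0.62). The differences between the libraries were not tested.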
